A study of Rattus norvegicus with 24 samples.

Results

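The 8 genes described here serve MHC class I antigen presentation. They are RT1-S3, a class I heavy chain, B2m, the light chain, Tap1 and Tap2, the peptide transporter, Tapbp, its link to the heavy chain, and Psmb8, Psmb9 and Psmb10, the immunoproteasome subunits. The members are 8 of 14217 genes with a named probe set and hold 13 of 31042 probe sets tested, 4 of which belong to RT1-S3 and 2 each to B2m and Tap1. The set was chosen by the measured values of RT1-S3, which differed between the drugs BZP and TFMPP, so the RT1-S3 values with these drugs, their difference and the mean over all drugs are given as a description without a test. The other 7 genes, called partners below, joined the list by their role.

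Primary rat hepatocytes, liver cells taken from the animal and held between layers of collagen in sandwich culture, received 1 of 4 designer drugs of the piperazine class for 24 h. The groups were BZP (benzylpiperazine) at 625 µM, TFMPP (trifluoromethylphenylpiperazine) at 35 µM, MeOPP (methoxyphenylpiperazine) at 522 µM and MDBP (methylenedioxybenzylpiperazine) at 467 µM, each with 3 treated arrays, against 3 arrays of cells with 0.1 percent DMSO for each drug. Every dose was the EC20, the concentration with a 20 percent effect, and each control title names the treated sample it belongs to, which gives 12 pairs. The doses in µM differ between the drugs, and the labels name neither strain, animal nor culture, so the p-values reflect only how far these samples spread, and that spread may be technical.

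Class I molecules carry peptides from inside the cell to its surface, where T cells and natural killer cells read them. Proteasomes cut the peptides, the TAP transporter moves them into the endoplasmic reticulum, and the loading complex fits them into the heavy chain bound to beta-2 microglobulin. Hepatocytes make class I molecules at rest, and interferons raise the heavy chains, the transporter and the immunoproteasome, whose subunits take the place of the catalytic subunits of the standard proteasome.

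All arrays were alike in level, with medians of the RMA-normalised log2 values between 4.448 and 4.519. Hepatocyte markers were high, with Alb at a median of 14.07 over the 12 DMSO arrays, and 9 of 9 measured hepatocyte markers had a DMSO median of at least 5 on the log2 scale. Of 12 markers of T and NK cells, 0 reached that level. Of 8 class II antigen presentation genes 5 did, and of 14 Kupffer cell and leukocyte markers 5 did. In the latter list the pan-leukocyte gene Ptprc had a median of 3.37, Lyz2 of 9.64 and Cd14 of 10.12. Of 8 sinusoidal endothelium markers 6 reached that level, of 11 stellate cell markers 5 and of 5 cholangiocyte markers 1. The DMSO arrays were cut into 5 clusters by correlation, a number set for the clustering. These clusters are called preparations here, though the labels name no such batch. Preparation 1 held the replicate 1 pairs of all 4 drugs, preparation 3 the replicate 3 pairs of BZP and MDBP, and preparation 4 those of TFMPP and MeOPP. Preparation 5 was the replicate 2 pair of MDBP alone, the other replicate 2 pairs making up preparation 2.

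The promoters of RT1-S3, B2m, Tap1 and Psmb9 are shown for the interferon-response letters that class I genes are known for. RT1-S3 and Tap1 are the members that passed a test by their leading probe set, B2m pairs with the heavy chain, and Psmb9 starts head to head with Tap1. Each run holds the 250 bases before the gene's start in RefSeq's GRCr8 assembly, 5′ to 3′ on the gene's strand, with capitals at matches to the core of the interferon-stimulated response element (GAAA, any 2 bases, then GAAA) on either strand. RT1-S3 lies on the plus strand at chr20:2675278-2675527, B2m on the plus strand at chr3:129549080-129549329, Tap1 on the minus strand at chr20:4668544-4668793 and Psmb9 on the plus strand at chr20:4668750-4668999.
RT1-S3: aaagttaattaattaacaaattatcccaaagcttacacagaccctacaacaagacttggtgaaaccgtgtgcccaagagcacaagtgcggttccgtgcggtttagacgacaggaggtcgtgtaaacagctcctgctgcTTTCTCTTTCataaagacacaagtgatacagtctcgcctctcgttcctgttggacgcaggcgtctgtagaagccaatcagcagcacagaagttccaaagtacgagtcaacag
B2m: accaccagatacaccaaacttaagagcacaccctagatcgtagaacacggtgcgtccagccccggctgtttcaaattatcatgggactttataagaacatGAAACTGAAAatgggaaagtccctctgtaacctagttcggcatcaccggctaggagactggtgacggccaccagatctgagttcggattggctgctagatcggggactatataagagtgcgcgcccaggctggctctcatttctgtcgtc
Tap1: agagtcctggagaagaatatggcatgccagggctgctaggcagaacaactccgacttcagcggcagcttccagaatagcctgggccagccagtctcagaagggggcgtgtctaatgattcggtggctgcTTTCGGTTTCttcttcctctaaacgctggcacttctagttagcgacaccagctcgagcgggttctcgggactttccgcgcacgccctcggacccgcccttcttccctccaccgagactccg
Psmb9: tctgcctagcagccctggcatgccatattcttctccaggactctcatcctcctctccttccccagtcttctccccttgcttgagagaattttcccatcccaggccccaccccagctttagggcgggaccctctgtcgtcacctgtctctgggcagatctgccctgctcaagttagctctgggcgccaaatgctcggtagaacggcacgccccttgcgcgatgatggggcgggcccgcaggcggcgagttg
The element's core stood in 6 of the 8 upstream windows, against 3.41 percent of 33469 rat promoters of the same length. It lay 112 to 103 bases before the start in RT1-S3, 150 to 141 in B2m, 121 to 112 in Tap1 and 41 to 32 in Tap2. Tapbp held 2 overlapping matches and Psmb10 held 2 separate ones. Psmb8 and Psmb9 held none in this window. The starts of Psmb9 and Tap1 are 456 bases apart and their windows share 44 bases. The NF-kappa B motif (GGG, any 2 bases, then TTTCC) was found in B2m, Tap1 and Tapbp, 3 of 8 against 1.3 percent of promoters, and the GAS motif (TTC, any 3 bases, then GAA) in Psmb8, 1 of 8 against 7.67 percent. CCAAT was found in RT1-S3, B2m and Psmb8, 3 of 8 against 34.0 percent. Matches of letters are descriptions of these windows, and 4 of the 8 genes, Tap2, Psmb8, Tap1 and Psmb9, are consecutive neighbours on the chromosome.

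RT1-S3, the heavy chain, was lower in every treated array of BZP, MeOPP and MDBP than in its own DMSO control, and near its controls with TFMPP. RefSeq lists the mouse gene H2-T23 among its synonyms, which encodes the nonclassical Qa-1 chain, a ligand of inhibitory receptors on natural killer cells in the mouse. With BZP the probe set of highest mean, 1388212_a_at, read 7.42, 9.17 and 8.39 on the log2 scale in replicates 1, 2 and 3, against 9.03, 10.25 and 9.83 in their DMSO controls. With TFMPP it read 8.69, 10.48 and 9.41, against 8.93, 10.00 and 9.38 in DMSO. With both drugs the treated and control ranges overlapped and the preparations lay far apart, but each BZP array was below its own control by more than 1 log2 unit. With MeOPP the values were 7.76, 9.54 and 8.47, against 9.03, 10.12 and 8.97 in DMSO. With MDBP they were 8.01, 9.10 and 8.82, against 8.74, 9.93 and 9.71 in DMSO. These groups overlapped too, and again each treated array was below its own control.

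**Figure D1:**
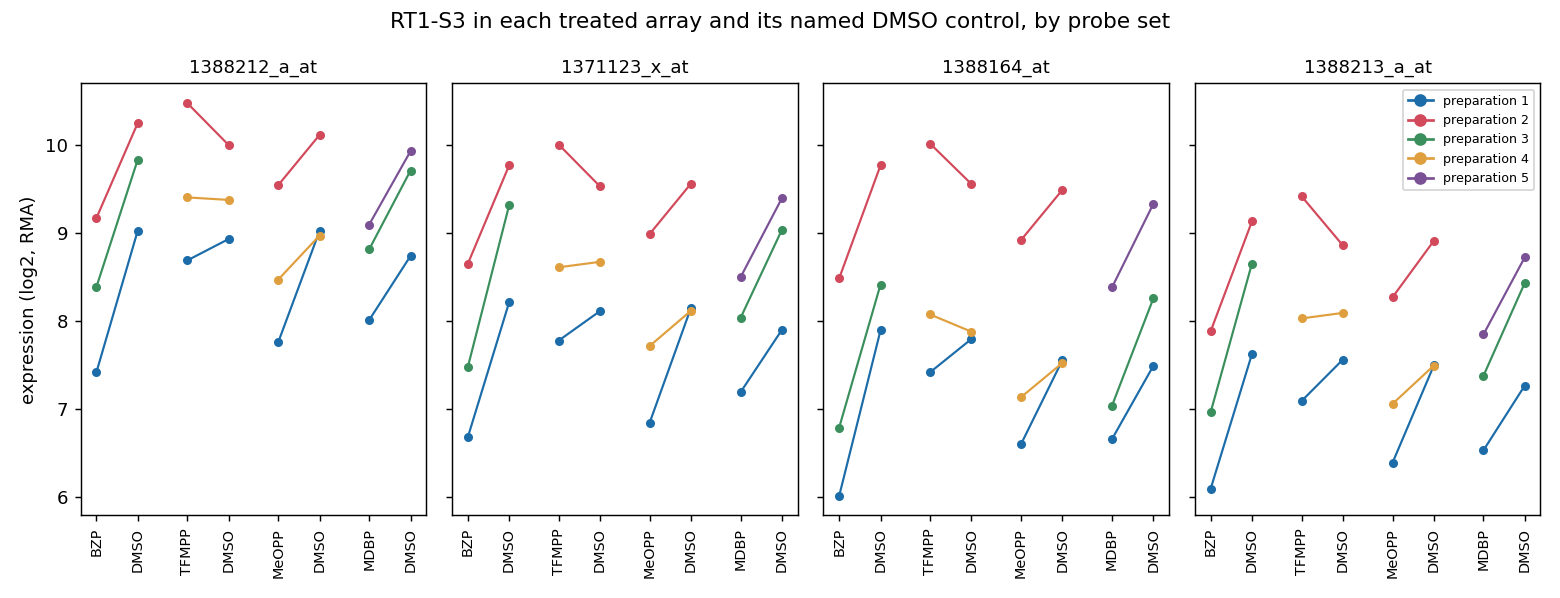
Levels of the 4 RT1-S3 probe sets (y axis, log2 RMA values) in each treated array and in its named DMSO control, joined by a line and coloured by preparation. All lines of BZP, MeOPP and MDBP slope upward from drug to DMSO, while those of TFMPP go either way, and the DMSO levels of 1388212_a_at span 8.74 to 10.25 over the preparations.

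The mean paired difference of RT1-S3 was -1.38 ± 0.27 with BZP and 0.09 ± 0.36 with TFMPP (SD, n = 3 pairs each), the values that chose the genes. RT1-S3 fell with MeOPP and with MDBP, values the choice did not use. The fitted change was -0.78 ± 0.15 with MeOPP (SE, n = 3 pairs; 1.72-fold lower; limma adjusted p = 0.00495) and -0.82 ± 0.15 with MDBP (1.76-fold lower; limma adjusted p = 0.0032). Over all probe sets limma called 3.78 percent lower with MeOPP and 3.76 percent lower with MDBP, and 347 and 341 probe sets had a deeper change than RT1-S3. Without its replicate 1 pair, in which the difference was -1.27, the MeOPP change was -0.54 and missed the threshold (adjusted p = 0.0941). Without pair terms the same 2 changes were also not called, at adjusted p = 0.893 for MeOPP and 0.832 for MDBP, as that fit sets the drug against the spread between preparations. The difference between MeOPP and MDBP was 0.04 (95% interval -0.41 to 0.49; adjusted p = 0.999), at doses that differ.

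All 4 RT1-S3 probe sets gave the same picture. The other 3 had mean paired differences of -1.60 to -1.49 with BZP and 0.01 to 0.09 with TFMPP. With MeOPP they changed by -0.76 to -0.64 (limma adjusted p = 0.012 to 0.0189), and with MDBP by -1.0 to -0.87 (adjusted p = 0.000678 to 0.00544). These probe sets are not independent: 2 were designed from the same accession, 3 carry the suffixes that Affymetrix gives to probe sets shared between transcripts or open to cross-hybridisation, and class I heavy chains are near-identical paralogs. Whether they read RT1-S3 alone was not tested. In a bulk array, fewer cells of a type and less RNA per cell cannot be told apart.

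The paired differences can be set side by side within the preparations that hold several drugs. In preparation 1, the only one with all 4 drugs, the paired difference of RT1-S3 (1388212_a_at) was -1.61 with BZP, -1.27 with MeOPP, -0.73 with MDBP and -0.24 with TFMPP. In preparation 2 it was -1.08 with BZP, 0.48 with TFMPP and -0.57 with MeOPP. In preparation 3 it was -1.45 with BZP and -0.90 with MDBP, and in preparation 4 it was 0.03 with TFMPP and -0.50 with MeOPP. The gene was chosen for its difference between BZP and TFMPP, so the place of these drugs in the order is no support. The fitted difference BZP minus TFMPP was -1.47 and had only 14 probe sets below it, a value that chose the genes.

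Markers of antigen-presenting cells, leukocytes and other liver cells, hepatocytes included, were compared in the same arrays as RT1-S3. The mean of the 8 class II genes ranged over 5.01 to 5.22 in BZP arrays, against 5.26 to 5.53 in their DMSO arrays, and its paired difference lay between -0.31 and -0.23. For TFMPP the paired difference of that mean spanned -0.35 to -0.16, for MeOPP -0.22 to -0.07 and for MDBP -0.47 to -0.15, so it was below 0 in TFMPP cells as well. Limma called 2 of the 8 lower with BZP, Cd74 and RT1-DMb, and 2 with MDBP, Cd74 and RT1-Da, beside 4.48 and 3.76 percent of all probe sets. With TFMPP and MeOPP 0 were called, where 3 and 1 had an unadjusted p under 0.05, beside 11.6 and 18.3 percent of all probe sets. The mean of the 14 Kupffer cell and leukocyte markers differed by -0.12 to -0.05 in BZP pairs, -0.15 to -0.04 in TFMPP pairs, -0.17 to -0.04 in MeOPP pairs and -0.27 to -0.05 in MDBP pairs. Its members went both ways: with BZP Cd68 (0.61) and Cd163 (0.59) were called higher and Cd14 (-0.57) lower. Clec4f (-0.57), Csf1r (-0.49) and Cd14 (-0.57) were called lower with MDBP, and Clec4f (-0.62) was called lower with MeOPP. With TFMPP 0 of the 14 were called, where 3 had an unadjusted p under 0.05, beside 11.6 percent of all probe sets. The mean of the 11 stellate cell markers differed by -0.28 to -0.07 in BZP pairs and -0.19 to 0.02 in TFMPP pairs. In MeOPP pairs it differed by 0.02 to 0.06, and in MDBP pairs by -0.09 to 0. Among the 11 only Col3a1 was called lower, with BZP (-1.06), MeOPP (-0.63) and MDBP (-0.78), beside 4.48, 3.78 and 3.76 percent of all probe sets. Col3a1 stood at -0.25 with TFMPP (limma adjusted p = 0.532). Only Dcn was called higher, with MeOPP (0.40), beside 2.23 percent of all probe sets. The mean of the 8 sinusoidal endothelium markers differed by -0.39 to 0.14 in BZP pairs and -0.31 to 0.05 in TFMPP pairs. For MeOPP it differed by -0.06 to 0.51, and for MDBP by -0.27 to -0.02. The mean of the 9 hepatocyte markers differed by -0.35 to -0.17 in BZP pairs and -0.22 to -0.04 in TFMPP pairs. For MeOPP it differed by -0.42 to -0.3, and for MDBP by -0.37 to -0.27. Limma called 1, 1, 2 and 3 of the 9 lower with BZP, TFMPP, MeOPP and MDBP, Apob with each drug. The shares of all probe sets called lower were 4.48, 1.22, 3.78 and 3.76 percent. The part of these cell types in the RT1-S3 values was not tested.

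B2m, which encodes beta-2 microglobulin, the light chain that class I heavy chains pair with, stayed close to its controls by its brighter probe set. 1367595_s_at averaged 12.64 ± 0.16 with BZP against 12.70 ± 0.25 in DMSO, 12.80 ± 0.19 with TFMPP against 12.84 ± 0.22, 12.78 ± 0.16 with MeOPP against 12.82 ± 0.16, and 12.62 ± 0.11 with MDBP against 12.68 ± 0.09 (SD, n = 3 each). Its fitted changes lay between -0.06 and -0.04, and the 95% intervals of all 4 drugs lay between -0.24 and 0.14. The second probe set, 1371440_at, read 8.65, 8.69 and 8.62 in BZP cells, against 8.79, 9.39 and 8.96 in DMSO, without overlap. That change was -0.39 ± 0.12 (SE, n = 3 pairs; limma adjusted p = 0.0434), where 4.48 percent of all probe sets were called lower with BZP and 9.56 percent did not overlap. With the other drugs this probe set was not called (adjusted p = 0.632 to 0.982), so the pair of B2m probe sets disagree for BZP.

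**Figure D2:**
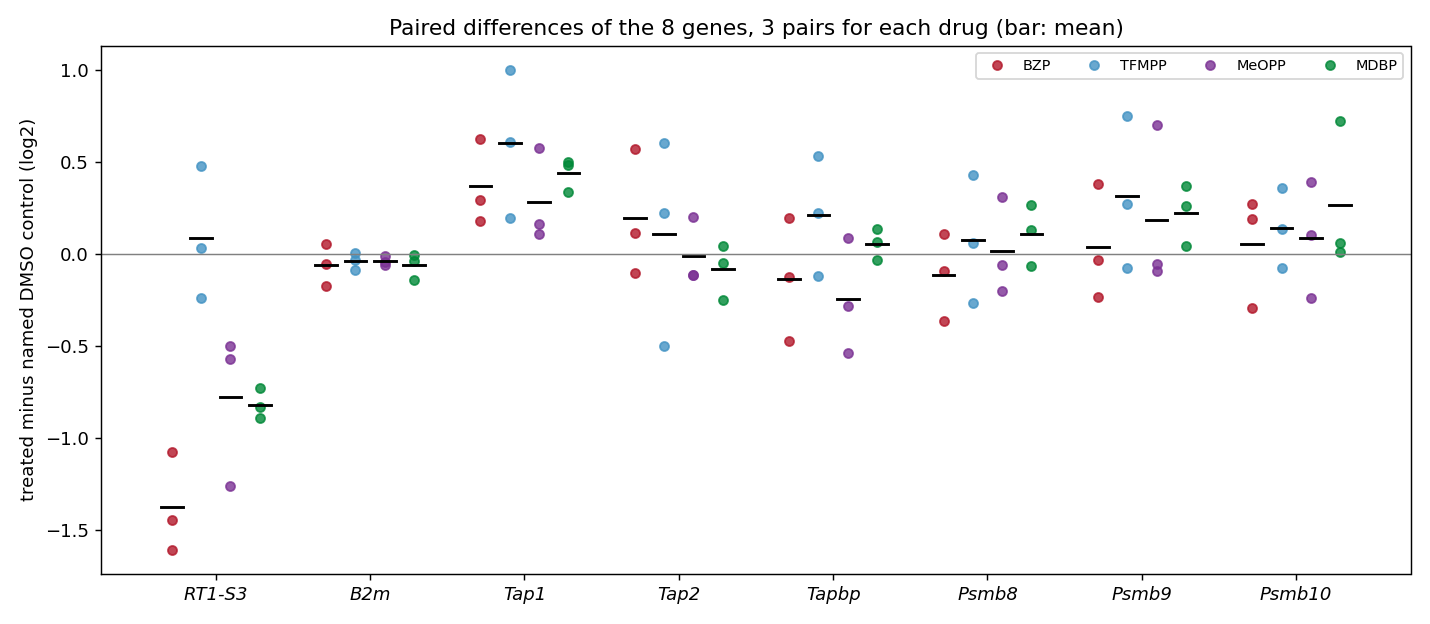
Paired differences, treated minus named DMSO control (y axis, log2), of the 8 genes by their probe set of highest mean, with a point for each of 3 pairs and a bar at the mean of each drug. RT1-S3 lies below 0 in all pairs of BZP, MeOPP and MDBP, Tap1 lies above 0 in all 12 pairs, and each other gene has pairs on both sides of 0. B2m stays between -0.175 and 0.054 and is below 0 in all pairs of MeOPP and MDBP. Psmb9 and Psmb10 are above 0 in all pairs of MDBP.

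Tap1, a subunit of the peptide transporter that the loading complex is built around, was higher in the treated array of 12 of 12 pairs. With TFMPP it read 7.49, 7.54 and 7.78, against 7.29, 6.54 and 7.17 in DMSO. With MDBP it read 7.38, 7.27 and 7.55, against 6.89, 6.77 and 7.21 in DMSO. With BZP it read 7.59, 7.50 and 7.41, against 7.30, 6.87 and 7.23 in DMSO. Treated and control arrays did not overlap for these 3 drugs, where 8.32, 12.1 and 9.56 percent of all probe sets were without overlap for TFMPP, MDBP and BZP. With MeOPP it read 7.42, 7.36 and 7.16, against 7.26, 6.79 and 7.05 in DMSO, and the groups overlapped. The lowest controls, at 6.54 to 6.89, included those of preparation 2, where the largest differences of BZP, TFMPP and MeOPP stood.

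Averaged over the drugs, Tap1 rose by 0.42 ± 0.07 (SE, n = 12 pairs; 1.34-fold; limma adjusted p = 0.000233), among 12.5 percent of probe sets called higher in that comparison. This call held under all 19 alternatives tried, with changes from 0.25 to 0.47. By drug, the rise of 0.60 ± 0.14 with TFMPP passed the threshold (1.52-fold; adjusted p = 0.0318), and it did not do so without its replicate 2 pair (0.40; adjusted p = 0.356), without its replicate 3 pair (0.60; adjusted p = 0.218) or without pair terms (adjusted p = 1). The changes of 0.44 with MDBP (adjusted p = 0.0636), 0.37 with BZP (adjusted p = 0.109) and 0.28 with MeOPP (adjusted p = 0.288) missed it. A dim second probe set of Tap1, 1375379_at, with a mean of 3.33, had a mean change of 0.07 over the drugs (adjusted p = 0.347). The 12 pairs fall into 5 inferred preparations, and the SE takes the pairs as independent.

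The partner of Tap1 in the transporter, Tap2, was not called with any drug. It averaged 6.17 ± 0.51 with BZP against 5.98 ± 0.25 in DMSO, 5.99 ± 0.28 with TFMPP against 5.88 ± 0.34, 5.98 ± 0.11 with MeOPP against 5.99 ± 0.28, and 5.97 ± 0.44 with MDBP against 6.06 ± 0.30 (SD, n = 3 each). Its pairs went both ways with each drug, from -0.50 to 0.60 for TFMPP alone. Tapbp encodes tapasin, which bridges TAP and the heavy chain and edits the bound peptide. Its fitted change was -0.14 with BZP and -0.25 with MeOPP, and 0.21 with TFMPP and 0.06 with MDBP (adjusted p = 0.396 to 0.885), each within the spread of its pairs.

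The 3 immunoproteasome subunits were not called with any drug. Psmb8, which replaces Psmb5 in the core particle, stood at -0.12, 0.07, 0.02 and 0.11 in the order BZP, TFMPP, MeOPP and MDBP, with adjusted p between 0.687 and 0.971. Psmb9, which replaces Psmb6, stood at 0.04, 0.32, 0.18 and 0.22 in the same drug order, with adjusted p between 0.507 and 0.933. Psmb10, which replaces Psmb7, stood at 0.05, 0.14, 0.08 and 0.26, with adjusted p between 0.371 and 0.888. In the replicate 2 pair of TFMPP, Psmb9 read 8.07 against 7.32 in DMSO, Psmb8 8.80 against 8.37 and Psmb10 6.69 against 6.33. In the replicate 1 pair of TFMPP all 3 were lower than in DMSO, by 0.08 for Psmb9 and Psmb10 and 0.27 for Psmb8. Averaged over the drugs, Psmb9 stood at 0.19 and was not called (limma adjusted p = 0.119).

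Of the 7 partners, limma called 0 with BZP, where it called 9.24 percent of all probe sets (4.75 percent higher, 4.48 percent lower). With TFMPP it called 1 higher, Tap1, against 1.78 percent of all probe sets (0.557 percent higher, 1.22 percent lower). With MeOPP it called 0, against 6.01 percent (2.23 percent higher, 3.78 percent lower), and with MDBP 0, against 6.98 percent (3.22 percent higher, 3.76 percent lower). Before adjustment, p was under 0.05 for 1 partner in each of BZP, TFMPP and MDBP and for 0 in MeOPP. Of all probe sets 22.2 percent were under 0.05 with BZP, 11.6 with TFMPP, 19.8 with MDBP and 18.3 with MeOPP. The median change of the 7 was 0.04, 0.14, 0.02 and 0.11 in the order BZP, TFMPP, MeOPP and MDBP, beside medians over all probe sets of -0.002, 0.006, 0.015 and 0. Leaving out 1 pair at a time moved the median between -0.061 and 0.174 for BZP, 0.028 and 0.377 for TFMPP, -0.073 and 0.124 for MeOPP, and 0.035 and 0.196 for MDBP, so its sign was not stable for BZP and MeOPP. In the mean of the drugs 1 of 7 was called, Tap1, against 22.4 percent of all probe sets (12.5 percent higher, 9.85 percent lower). Among the 6 partners other than Tap1, the 95% intervals of the change with a drug lay between -0.55 and 0.67, and changes of that size lie within what 3 pairs a drug leave possible.

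The drugs did not differ detectably in the partners. Of 35 tests, 7 genes in 5 differences between drugs, 0 passed the adjusted threshold, where 0 of all 31042 probe sets did so in each difference, and 1 had an unadjusted p under 0.05, as 3.7 to 6.93 percent of all probe sets did. That was Tapbp in TFMPP minus MeOPP, at 0.46 (95% interval 0.04 to 0.88; adjusted p = 0.89). For BZP minus TFMPP, which chose the list and is given without a test, the 7 partners ranged over -0.35 to 0.09, against -1.47 for RT1-S3. The 95% intervals of the tested Tap1 differences lay between -0.57 and 0.73. The doses differ, so these differences compare the drugs only at their EC20.

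In the DMSO controls RT1-S3 and the immunoproteasome genes varied between preparations. Over the 12 DMSO arrays RT1-S3 ranged from 8.74 to 10.25 with a median of 9.54, and its preparation means were 8.93, 10.12, 9.77, 9.17 and 9.93 for preparations 1 to 5. Psmb9 ranged from 7.28 to 8.87, with a mean of 8.83 in preparation 3 and 7.45 to 7.56 in the others. Psmb10 was likewise highest in preparation 3, at 7.51, against 6.42 to 6.79 elsewhere. Psmb8 was lowest in preparation 1, at 7.75, and highest in preparation 3, at 8.66. B2m ranged only from 12.55 to 12.99 and Tapbp from 7.82 to 8.37. The SD of RT1-S3 over the DMSO arrays exceeded that of 94.2 percent of probe sets and that of Psmb9 exceeded 94.3 percent, against 46.9 percent for B2m and 29.1 percent for Tapbp.

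**Figure D3:**
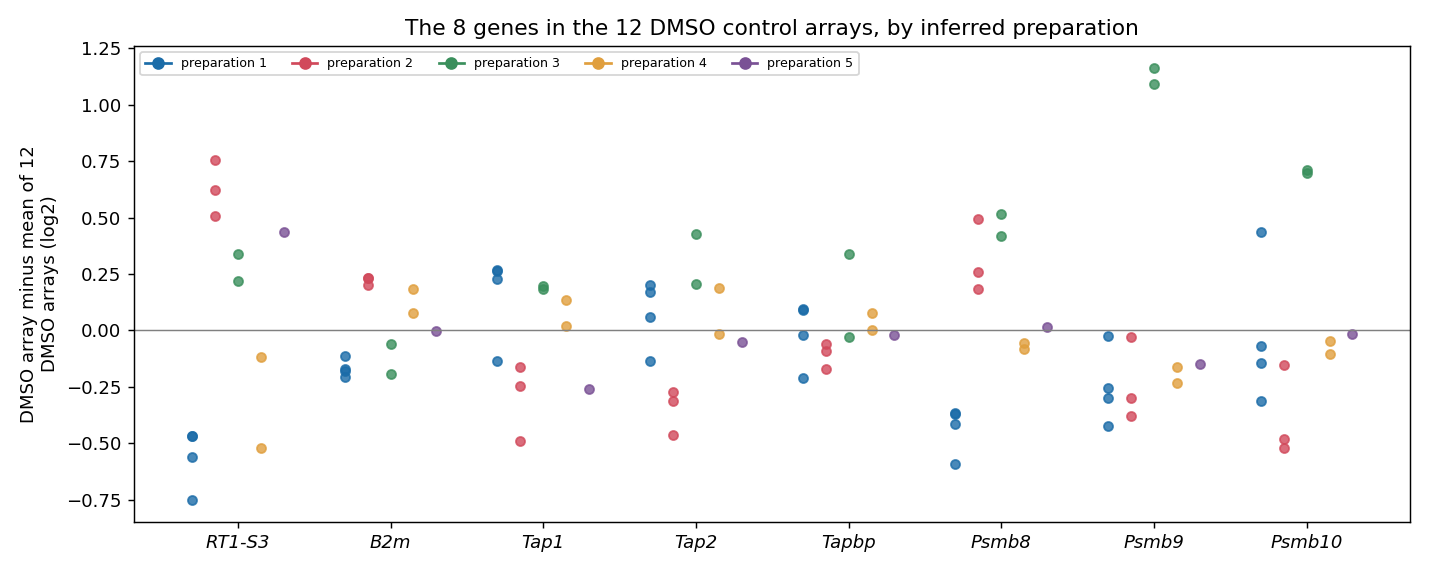
Levels of the 8 genes in the 12 DMSO control arrays, each as the difference from the gene's mean over those arrays (y axis, log2) and coloured by inferred preparation. RT1-S3 is lowest in preparation 1 and highest in preparation 2, while Psmb9 and Psmb10 are highest in preparation 3.

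Most of the other class I chains did not pass the test. Of 47 other class I and class I-like genes listed, 14 had a probe set of their own. By the probe set of highest mean of each gene, limma called 2 lower with BZP, 1 each with TFMPP and MeOPP and 0 with MDBP. By that probe set it called 0 higher with any drug. Other probe sets of RT1-CE5 were called higher, 2 with BZP and 2 with MDBP, beside 4.75 and 3.22 percent of all probe sets. With MDBP 2 had an unadjusted p under 0.05, beside 19.8 percent of all probe sets. The shares of all probe sets called lower were 4.48 percent for BZP, 1.22 percent for TFMPP, 3.78 percent for MeOPP and 3.76 percent for MDBP. Averaged over the drugs, 3 of the 14 were called lower and 1, RT1-CE5, higher, beside 9.85 and 12.5 percent of all probe sets. Cd1d1, which presents lipids to natural killer T cells, was lower with BZP (-0.54; limma adjusted p = 0.0321), TFMPP (-0.64; adjusted p = 0.0409) and MeOPP (-0.66; adjusted p = 0.0145), and was at -0.29 with MDBP (adjusted p = 0.312). Hfe, the class I-like regulator of iron uptake, was lower with BZP (-0.46; adjusted p = 0.0393). Fcgrt, the neonatal Fc receptor, was not called by drug, at -0.39, -0.28, -0.10 and -0.09 in the order BZP, TFMPP, MeOPP and MDBP, and was called in the mean of the drugs, at -0.21 (adjusted p = 0.0426). RT1-A, the classical rat class I chain, was added to the list after the annotation was seen and was not called, at -0.29 with BZP and -0.18 with MeOPP, and 0.06 with TFMPP and 0.09 with MDBP (adjusted p = 0.124 to 0.934).

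**Figure D4:**
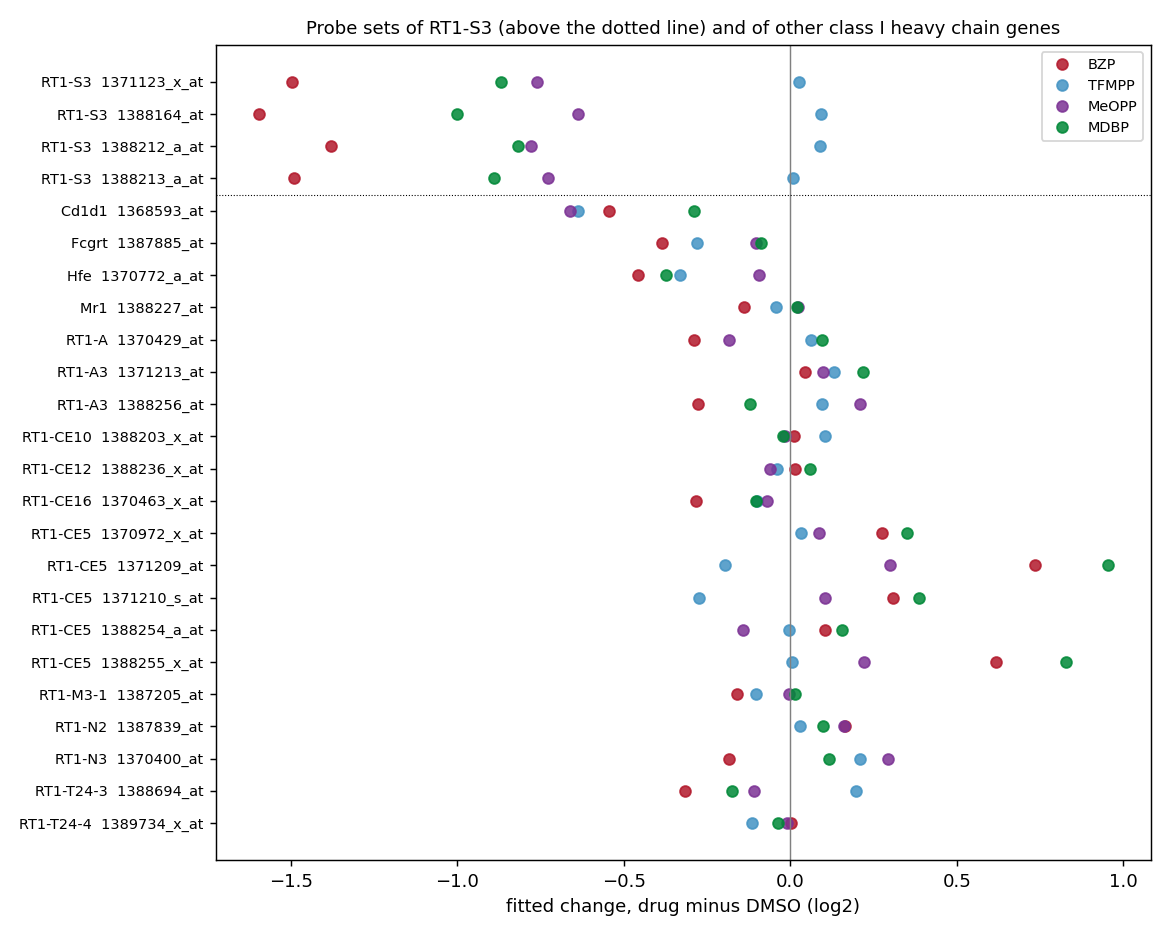
Fitted change, drug minus DMSO (x axis, log2), of the RT1-S3 probe sets above the dotted line and of 20 probe sets of 15 other class I genes below it, 1 point for each drug. The RT1-S3 probe sets with BZP lie at -1.38 and below, and the lowest of the other class I probe sets with BZP is Cd1d1 at -0.54. The highest of the other class I probe sets is of RT1-CE5, at 0.735 with BZP and 0.954 with MDBP.

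Calr and Ganab were the chaperones of class I loading called by drug. Of 11 listed 10 were measured, and 1 was called lower with BZP and 2 each with MeOPP and MDBP, beside 4.48, 3.78 and 3.76 percent of all probe sets. With TFMPP 0 were called, where 1 had an unadjusted p under 0.05, beside 11.6 percent of all probe sets. Limma called 0 of the 10 higher with any drug. Calr, calreticulin, a lectin chaperone of the loading complex, changed by -0.58 with MeOPP (limma adjusted p = 0.0137) and -0.49 with MDBP (adjusted p = 0.0336), and was at -0.19 with BZP (adjusted p = 0.436) and -0.37 with TFMPP (adjusted p = 0.224). Ganab, a glucosidase subunit that trims glycans before calreticulin binds, changed by -0.48 with BZP, -0.55 with MeOPP and -0.49 with MDBP (adjusted p = 0.0345, 0.0228 and 0.0396). In the mean of the drugs 6 of 10 were called lower, beside 9.85 percent of all probe sets. Pdia3, the disulphide isomerase tied to tapasin, was among them at -0.24 (adjusted p = 0.0156), and was not called by drug.

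Core subunits of the standard proteasome did not pass the test with any single drug. Limma called 0 of 13 measured by drug. Over all probe sets it called 9.24, 1.78, 6.01 and 6.98 percent with BZP, TFMPP, MeOPP and MDBP. Before adjustment p was under 0.05 for 2 of the 13 with BZP and 1 with MeOPP, beside 22.2 and 18.3 percent of all probe sets. Averaged over the drugs 1 was called, Psma3, a structural alpha subunit, at -0.27 (adjusted p = 0.00497), beside 9.85 percent of all probe sets called lower. Psmb5 stood at 0.16, 0.04, 0.08 and 0.06 with BZP, TFMPP, MeOPP and MDBP, and Psmb7 at -0.01, -0.13, 0.08 and 0.03. The activators Psme1 and Psme2, which open the core and are induced by interferon gamma, were not called with any drug, with changes between -0.21 and 0.13. Of 9 activators and assembly factors, Psmg2, an assembly chaperone, was called with MeOPP, at 0.36 (adjusted p = 0.0282), and of 17 regulatory particle subunits Psmd4, a ubiquitin receptor, with MeOPP, at 0.33 (adjusted p = 0.0496). Over all probe sets 2.23 percent were called higher with MeOPP. In the mean of the drugs 1 activator or assembly factor was called higher and 1 lower, and 2 regulatory particle subunits higher. The shares of all probe sets there were 12.5 percent higher and 9.85 percent lower.

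Few inducers and regulators of class I genes were called by drug. Of 28 measured inducers and regulators, 3 were called lower and 1 higher with BZP, 1 higher with TFMPP, and 0 with MeOPP and MDBP. With BZP the shares of all probe sets were 4.48 percent lower and 4.75 percent higher, and with TFMPP 0.557 percent higher. Before adjustment, p was under 0.05 for 10 of the 28 in TFMPP cells and 7 in BZP cells, beside 11.6 and 22.2 percent of all probe sets. MeOPP cells had 5 such genes and MDBP cells 4, beside 18.3 and 19.8 percent of all probe sets. In the mean of the drugs 6 were called higher and 3 lower, beside 12.5 and 9.85 percent of all probe sets. Irf9, a subunit of the factor that type I interferon activates, was at -0.70 with BZP (limma adjusted p = 0.000472) and 0.50 with TFMPP (adjusted p = 0.0219), and was named after its values were seen. Usp18, which dampens interferon signalling, was at -1.38 with BZP (adjusted p = 0.00102) and 0.68 with TFMPP (adjusted p = 0.189). Irf1, which activates class I genes, was at 0.06, 0.14, 0.14 and 0.04 with BZP, TFMPP, MeOPP and MDBP, and Nlrc5, the class I transactivator, at 0.25, 0.30, 0.08 and -0.01, none of them called by drug. Nlrc5 was called in the mean of the drugs, at 0.15 (adjusted p = 0.0169), and Irf1 was not, at 0.10 (adjusted p = 0.355). Of 35 other interferon-response genes, 8 were called lower with BZP, 1 higher with TFMPP, 1 lower with MeOPP, and 1 higher and 2 lower with MDBP. Beside these stood 4.48 percent of all probe sets lower with BZP, 0.557 percent higher with TFMPP, 3.78 percent lower with MeOPP, and 3.22 percent higher and 3.76 percent lower with MDBP. Before adjustment, p was under 0.05 for 13 of the 35 with BZP, 19 with TFMPP and 8 each with MeOPP and MDBP. Over all probe sets the shares under 0.05 were 22.2, 11.6, 18.3 and 19.8 percent with BZP, TFMPP, MeOPP and MDBP. Their median change was -0.23 with BZP and 0.39 with TFMPP, and -0.01 with MeOPP and 0.03 with MDBP. Averaged over the drugs, 4 were called higher and 7 lower, beside 12.5 and 9.85 percent of all probe sets. Oas1a, an antiviral enzyme, was at -1.31 with BZP (adjusted p = 0.000409) and Ifih1, a sensor of viral RNA, at -1.03 with BZP, -0.79 with MeOPP and -0.76 with MDBP (adjusted p = 0.00536, 0.0364 and 0.0414). Rsad2 and Ifit3 were called higher in the mean of the drugs, at 0.88 (adjusted p = 0.00504) and 0.59 (adjusted p = 0.00388). Rsad2 was not called by drug, at 0.295, 0.96, 0.96 and 1.31 with BZP, TFMPP, MeOPP and MDBP. Ifit3 was called higher with MDBP, at 0.99 (adjusted p = 0.0346), and stood at -0.29 with BZP (adjusted p = 0.598).

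Over the 12 pairs, the paired differences most like those of RT1-S3 among 8600 candidate genes were those of Apol9a (Pearson r = 0.949), Gstt3 (0.926), Parp12 (0.925), Irf7 (0.924) and Oas1a (0.917). These r values describe 12 pairs in 5 inferred preparations, were picked as the highest of many and rest partly on the values that chose the genes. Gstt3 lay at -2.03, -0.80, -1.34 and -1.83 with BZP, TFMPP, MeOPP and MDBP, below 0 with each drug, while Apol9a lay at -0.92, 0.74, -0.15 and -0.26. The paired differences most like the mean of the 7 partners were those of Bcl7a (r = 0.926), Thnsl2 (0.914), Cnp (0.857), Popdc2 (0.853) and Ube2l6 (0.848). Bcl7a, Thnsl2, Cnp and Popdc2 lay below 0 with each drug, between -0.598 and -0.045, while the partner medians were 0.02 to 0.14. Ube2l6 lay between -0.04 and 0.17. These r values thus describe how the pairs vary and not a shared direction of change. RT1-S3 itself correlated with single partners at 0.01 to 0.674.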

How the data were processed

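Gene expression was measured on 24 Affymetrix arrays, 3 treated and 3 DMSO for each of 4 drugs. The authors deposited log2 values; per the submitters' processing notes they come from RMA (version not given in the sources used here). RMA corrects background, quantile-normalises and summarises probe sets, so an overall shift of all genes would be removed; values were used as deposited. Of 31099 probe sets, 57 controls were left out, and the platform table gave 1 symbol for 20826, several for 436 and none for 9780. The probe set of highest mean stood for each gene. Arrays carry no read depth, and their number limits precision.

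All arrays entered 1 model in limma 3.58.1 (R 4.3.3), in which 12 terms stood for pairs and 4 for drugs (8 residual degrees of freedom, 7.66 prior). Tests were two-sided, with Benjamini-Hochberg adjustment over 31042 probe sets and calls at an adjusted p under 0.05. Pairs come from the control titles, and deviations within pairs correlated at 0.612 to 0.802 in all 12. DMSO arrays correlated at 0.9943 to 0.9971 within the 5 inferred preparations and 0.9622 to 0.9919 between them. The fit was tested on simulated data with known changes and noise drawn independently for each array. Of changes of 0.5 log2 units it called 33.3 to 51.4 percent by drug, and of changes of 1 log2 unit 92.9 to 97.2 percent. Motifs were searched with Python 3.11.15.

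The members and gene lists were chosen with earlier results of these data known. Named genes were all members, fixed pathway genes and up to 4 called genes a list with the largest mean change. Psmb6 shares its probe set with another symbol and is not given. Alternatives dropped or replaced the pair terms, changed the arrays, normalisation, probe set rule, intensity filter or prior, and left out each pair.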

Additional observations from a re-analysis of the deposited data

How the results depend on the processing

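No called result changed sign. The partner medians of BZP and MeOPP and the RT1-S3 value with TFMPP, which have no test, did. Leaving out 1 pair at a time moved RT1-S3 between -0.107 and 0.253 with TFMPP and between -1.528 and -1.263 with BZP. Without pair terms (no replicate block) the count of partners called with TFMPP was 0, and RT1-S3 was at -0.78 with MeOPP (adjusted p = 0.893) and -0.82 with MDBP (adjusted p = 0.832). With the 12 DMSO arrays as 1 control group the TFMPP count was 0, and RT1-S3 was at -0.90 (adjusted p = 0.296) and -0.85 (adjusted p = 0.429). Preparation terms in place of pair terms gave a count of 1 with BZP and 1 with MDBP, Tap1 in both (adjusted p = 0.00676 and 0.0439). The MDBP count was also 1 from its 6 arrays alone (adjusted p = 0.0419) and among probe sets with a mean of at least 5 (adjusted p = 0.0431). Averaging the probe sets of a gene gave a TFMPP count of 0, with Tap1 at 0.33 (adjusted p = 0.146). Leaving out 1 pair at a time moved the TFMPP count between 0 and 1, RT1-S3 between -0.92 and -0.54 with MeOPP and between -0.87 and -0.78 with MDBP, and the partner median between -0.061 and 0.174 (BZP), 0.028 and 0.377 (TFMPP), -0.073 and 0.124 (MeOPP) and 0.035 and 0.196 (MDBP). Of 327 comparisons over 29 partner results, 318 stayed on the same side of the threshold, 5 lost a call and 4 gained one. The partner count over the mean of the drugs was 1 and that over the differences 0 in all 19 alternatives. Repeated quantile normalisation and an intensity trend in the prior changed no count. The number of pairs, 3 a drug, limits the precision of each drug.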

Other observations

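RT1-CE5, another class I heavy chain gene, had 5 probe sets, of which 2 were higher with BZP and MDBP, the opposite direction to RT1-S3. It was singled out after its values were seen, since its probe set of highest mean, 1370972_x_at, was not called by drug, at 0.28 with BZP (limma adjusted p = 0.162) and 0.35 with MDBP (adjusted p = 0.0817). 1371209_at was at 0.74 with BZP (adjusted p = 0.00127), 0.95 with MDBP (adjusted p = 0.000195), 0.30 with MeOPP (adjusted p = 0.205) and -0.20 with TFMPP (adjusted p = 0.634). 1388255_x_at was at 0.62 with BZP (adjusted p = 0.00229), 0.83 with MDBP (adjusted p = 0.000272), 0.22 with MeOPP (adjusted p = 0.324) and 0.01 with TFMPP (adjusted p = 0.995). All 5 probe sets of this gene were above 0 with BZP (0.105 to 0.735) and MDBP (0.155 to 0.954), but they differ in size and in passing the threshold. Class I paralogs can share probes, which was not tested here.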
